A study of Mus musculus with 15 samples.

Results

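Hearts of mice given isoproterenol for 11 days were set against hearts given it for 8 days, which asks what still differed in the cardiac transcriptome late in the treatment. The 7 libraries were chosen by their treatment labels, 4 of the 11-day group (A to D) and 3 of the 8-day group (A to C), of 15 libraries in the series. All came from male C57BL6 mice aged 12 weeks, with isoproterenol injected under the skin at 50 mg/kg/day for 11 or 8 days. The other libraries, 4 of hearts after 4 days of the same dose and 4 of hearts after saline, are used here to describe levels. The hearts were sequenced as total RNA, so every value is an average over the cell types of the tissue.

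Isoproterenol activates β-adrenergic receptors, the route by which noradrenaline and adrenaline make the heart beat faster and harder. Sustained dosing in mice enlarges the heart, injures cardiomyocytes and leads to fibrosis. In the adult heart cardiomyocytes seldom divide, whereas fibroblasts, endothelial cells and macrophages can enter the cell cycle after an injury.

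Total expected counts were 36611943 to 95450318 in the 11-day libraries and 25404024 to 46582761 in the 8-day libraries. Mitochondrially encoded genes held 49.1 to 52.8% of all counts at 11 days and 49.6 to 55.9% at 8 days. The library 8-day A stood apart, because CT010467.1 and Lars2, a pair of genes that collect ribosomal RNA reads, took 15.8% of its counts, against at most 0.0916% in any other library of the series. As a check of the tissue label, 20 cardiomyocyte genes summed to 85170 to 93040 CPM (counts scaled to a common library total) at 11 days and 82230 to 87480 CPM at 8 days. Levels below are CPM scaled by the TMM method of edgeR, with n = 4 hearts at 11 days and n = 3 hearts at 8 days, and the size by which a gene rose or fell is a log2 fold change, 11 days over 8 days, with its standard error (SE).

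Few genes passed the test between the time points. Of 26862 genes tested, 16 were higher and 21 lower at 11 days by edgeR's quasi-likelihood test at an adjusted p of 0.05, which is 0.0596% and 0.0782% of the genes and 0.138% together. The smallest adjusted p in edgeR's test was 0.00389, 21 genes shared an adjusted p of 0.0428, and 3020 genes had an unadjusted p under 0.05. In all 37 called genes the 11-day hearts did not overlap the 8-day hearts, and 15 of them differed by at least 2-fold. Over all genes tested, every 11-day heart lay above every 8-day heart in 6.44% of genes and below in 5.11%, the median log2 fold change was 0.0042, and 50.6% of genes lay above 0.

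Most of the calls did not hold in every fit with 1 heart left out. Dbp, Mki67 and Gm48113 were the 3 genes that passed edgeR's threshold in each of the 7 fits with 1 heart left out. Of the 37 genes, 12, 10, 21 and 3 still passed without 11-day A, B, C and D, and 20, 30 and 6 without 8-day A, B and C. Each of the 37 kept its direction in these 7 fits.

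**Figure D1:**
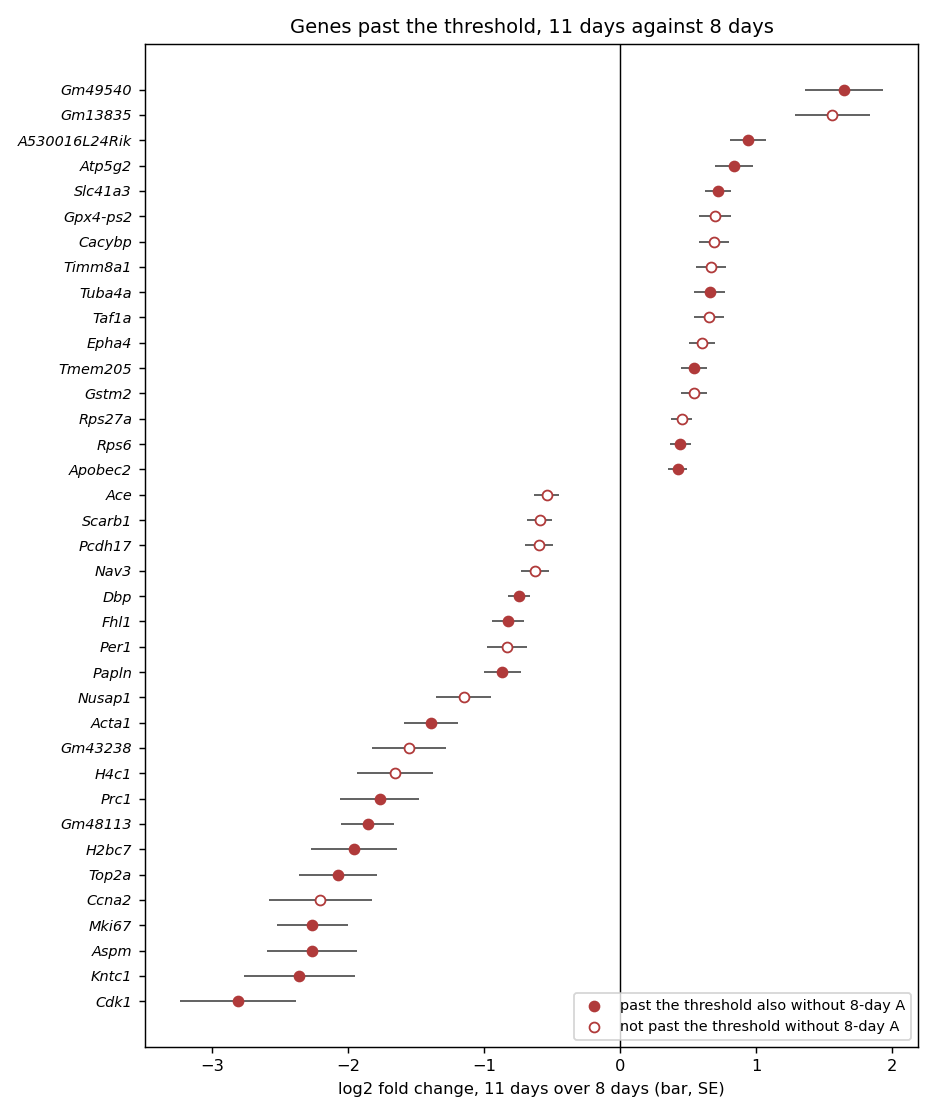
Log2 fold change of the 37 genes past the threshold, 11 days over 8 days, with bars of 1 SE. Filled points passed edgeR's threshold also without 8-day A and open points did not. The 16 higher genes lie between 0.42 and 1.65, and the 21 lower genes lie between -2.81 and -0.54.

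Genes that cells use to divide made up a large share of those that fell. Of 45 mitosis genes tested, 6 fell and 0 rose at 11 days, where 0.0782% of all genes fell, 44 lay below 0, and the 11-day hearts lay below all 8-day hearts in 30 of them (5.11% of all genes), with a median log2 fold change of -1.28. The 6 were Mki67, Top2a, Cdk1, Prc1, Ccna2 and Nusap1. The median was -1.47 without 8-day A, and 4 of the 6 then still passed. The 45 genes summed to 37.3 to 74.7 CPM at 11 days and 51.5 to 84.0 CPM at 8 days, ranges that overlap. In bulk tissue, fewer dividing cells and less of these transcripts per cell cannot be told apart. Beside them, 22 T, B and NK cell markers had 15 members below 0 and 0 called. They summed to 3.46 to 3.89 CPM at 11 days and 4.00 to 7.02 CPM at 8 days. Their mean log2 level, relative to the mean of the 7 hearts, overlapped between the groups. It ran from -0.29 to 0.21 at 11 days and from -0.31 to 0.43 at 8 days. Their median log2 fold change was -0.43, or 0.04 without 8-day B, and their part in the mitosis genes was not tested.

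Mki67 encodes Ki-67, a protein that coats mitotic chromosomes and marks cycling cells. It lies on chromosome 7, 135689784 to 135716361, GRCm38. Its level was 1.20, 2.15, 2.51 and 1.28 CPM in 11-day A to D, against 7.69, 5.75 and 11.6 CPM in 8-day A to C. Every 8-day heart stood well above every 11-day heart, and 8-day C was the highest. Mki67 fell by 2.26 (SE 0.26, adjusted p = 0.00466) in edgeR's test. It passed in all 7 fits with 1 heart left out, where its highest adjusted p in edgeR's test was 0.0189, and missed the threshold with robust dispersions (0.0984) and with all 4 groups in one fit (0.0987).

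Top2a encodes topoisomerase IIα, which untangles sister chromatids before they separate. It stood at 0.469, 1.16, 1.09 and 0.797 CPM in 11-day A to D, against 3.05, 2.54 and 5.26 CPM in 8-day A to C. The groups lay apart, again with 8-day C highest, and Top2a fell by 2.08 (SE 0.29, adjusted p = 0.0232) in edgeR's test. Cdk1 encodes the kinase that drives entry into mitosis. It was thinly covered, with 3, 4, 5 and 11 counts in 11-day A to D against 11, 16 and 31 counts in 8-day A to C. Scaled, these were 0.0562, 0.110, 0.0897 and 0.110 CPM at 11 days, against 0.335, 0.677 and 0.989 CPM at 8 days, and Cdk1 fell by 2.81 (SE 0.43, adjusted p = 0.0359) in edgeR's test. Top2a missed the threshold without 11-day D or 8-day C (0.0758 and 0.0636), and Cdk1 without 11-day A, B or D or 8-day C (0.0610, 0.0656, 0.0788 and 0.143), the values in parentheses being edgeR's adjusted p in that order. Of 20 alternative fits, leave-outs included, Top2a passed in 13 and Cdk1 in 12. With effective lengths as offsets Top2a was at -2.01 and did not pass in edgeR's test (0.1135).

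Genes of the G2 and M phases share promoter elements in mammals, among them the cell cycle homology region (CHR, TTTGAA or TTTAAA) and the CCAAT box (CCAAT). The promoters of Mki67, Top2a and Cdk1 are shown because these 3 had the lowest adjusted p of the mitosis genes. Each is RefSeq's 250 bases before the transcription start (GRCm38.p6), 5′ to 3′ on the strand of the gene, and capitals mark a CHR or CCAAT match on either strand.
Mki67, chr7:135716380-135716629, minus strand: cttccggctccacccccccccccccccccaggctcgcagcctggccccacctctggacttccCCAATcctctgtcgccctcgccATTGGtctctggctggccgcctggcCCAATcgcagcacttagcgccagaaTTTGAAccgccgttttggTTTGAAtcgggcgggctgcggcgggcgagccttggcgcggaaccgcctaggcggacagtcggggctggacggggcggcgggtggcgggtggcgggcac
Top2a, chr11:99024190-99024439, minus strand: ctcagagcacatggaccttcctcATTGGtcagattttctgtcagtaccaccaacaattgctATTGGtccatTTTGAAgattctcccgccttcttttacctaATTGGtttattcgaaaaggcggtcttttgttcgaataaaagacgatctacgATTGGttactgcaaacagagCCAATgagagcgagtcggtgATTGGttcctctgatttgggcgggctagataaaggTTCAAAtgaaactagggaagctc
Cdk1, chr10:69352913-69353162, minus strand: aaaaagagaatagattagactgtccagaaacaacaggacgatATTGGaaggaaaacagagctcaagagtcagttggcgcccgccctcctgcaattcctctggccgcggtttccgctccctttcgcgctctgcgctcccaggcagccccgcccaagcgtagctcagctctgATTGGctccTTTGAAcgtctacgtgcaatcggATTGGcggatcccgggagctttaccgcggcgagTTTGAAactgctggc
Mki67 held 2 CHR and 3 CCAAT matches, Top2a 2 CHR and 6 CCAAT matches, and Cdk1 2 CHR and 3 CCAAT matches. Of the 45 mitosis genes 37 had a promoter in the table, of which 16 held a CHR match (43.2%) and 25 a CCAAT match (67.6%), against 25.2% and 33.8% of 32851 promoters of the same length. These are matches of letters, and no binding was measured. Each mitosis gene was counted once, by its first promoter along the chromosome, while the 32851 hold every promoter listed for a gene.

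Prc1, which bundles the microtubules of the central spindle, stood at 0.600, 0.330, 0.592 and 0.398 CPM in 11-day A to D, against 1.43, 1.06 and 2.39 CPM in 8-day A to C, and fell by 1.77 (SE 0.29, adjusted p = 0.0428) in edgeR's test. Ccna2, cyclin A2, a partner of the cell cycle kinases, stood at 0.206, 0.248, 0.197 and 0.249 CPM at 11 days, against 1.13, 0.381 and 1.56 CPM at 8 days, and fell by 2.21 (SE 0.38, adjusted p = 0.0428). Nusap1, a protein of spindle microtubules, stood at 0.600, 0.578, 0.664 and 0.538 CPM at 11 days, against 1.34, 1.44 and 1.18 CPM at 8 days, and fell by 1.15 (SE 0.20, adjusted p = 0.0445). The 11-day hearts lay close together in Ccna2 and Nusap1 and were more spread in Prc1. The 8-day heart nearest to them was 8-day B in Prc1 and Ccna2. With effective lengths as offsets, which correct each count for the length of transcript estimated in its library, Prc1 was at -1.03 and did not pass in edgeR's test (0.454). Prc1 also missed the threshold without 11-day A, B or D or 8-day C (0.0579, 0.0877, 0.0980 and 0.149), Ccna2 without 11-day A, B, C or D or 8-day A or C (0.0817, 0.0946, 0.0525, 0.0960, 0.0778 and 0.162), and Nusap1 in each of the 7 fits, where its log2 fold change stayed between -1.23 and -1.09, with an adjusted p of 0.0810 without 8-day A.

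Most other members pointed the same way at low levels. Just outside the threshold, and named after their values were seen, were Ncapg, a condensin subunit, at -2.06 (SE 0.37, adjusted p = 0.0516), Ccnb2, cyclin B2, at -2.45 (SE 0.45, adjusted p = 0.0523), Kif11, a spindle motor, at -1.65 (SE 0.30, adjusted p = 0.0523), and Foxm1, a transcription factor of the G2 and M phases, at -1.97 (SE 0.37, adjusted p = 0.0559), all on the log2 scale from edgeR, with Foxm1 at -0.82 with effective lengths as offsets. Cenpf, a kinetochore protein, was the 1 member above 0. It stood at 24.8 ± 16.2 CPM at 11 days and 13.8 ± 3.32 CPM at 8 days (SD), with overlapping hearts and a log2 fold change of 0.85 (SE 0.38, adjusted p = 0.426) in edgeR's test, or 0.38 without 11-day C.

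Aspm and Kntc1, outside the list and also named after their values were seen, act in mitosis too. Aspm, a spindle pole protein, fell by 2.27 (SE 0.33, adjusted p = 0.0232) in edgeR's test, which was lost without 11-day D or 8-day C (0.0758 and 0.0987). Kntc1, a kinetochore protein, fell by 2.36 (SE 0.41, adjusted p = 0.0428), which was lost without 11-day A, B, C or D or 8-day C (0.0817, 0.0741, 0.0525, 0.113 and 0.192). Of the 20 alternative fits, Aspm passed in 13 and Kntc1 in 9.

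**Figure D2:**
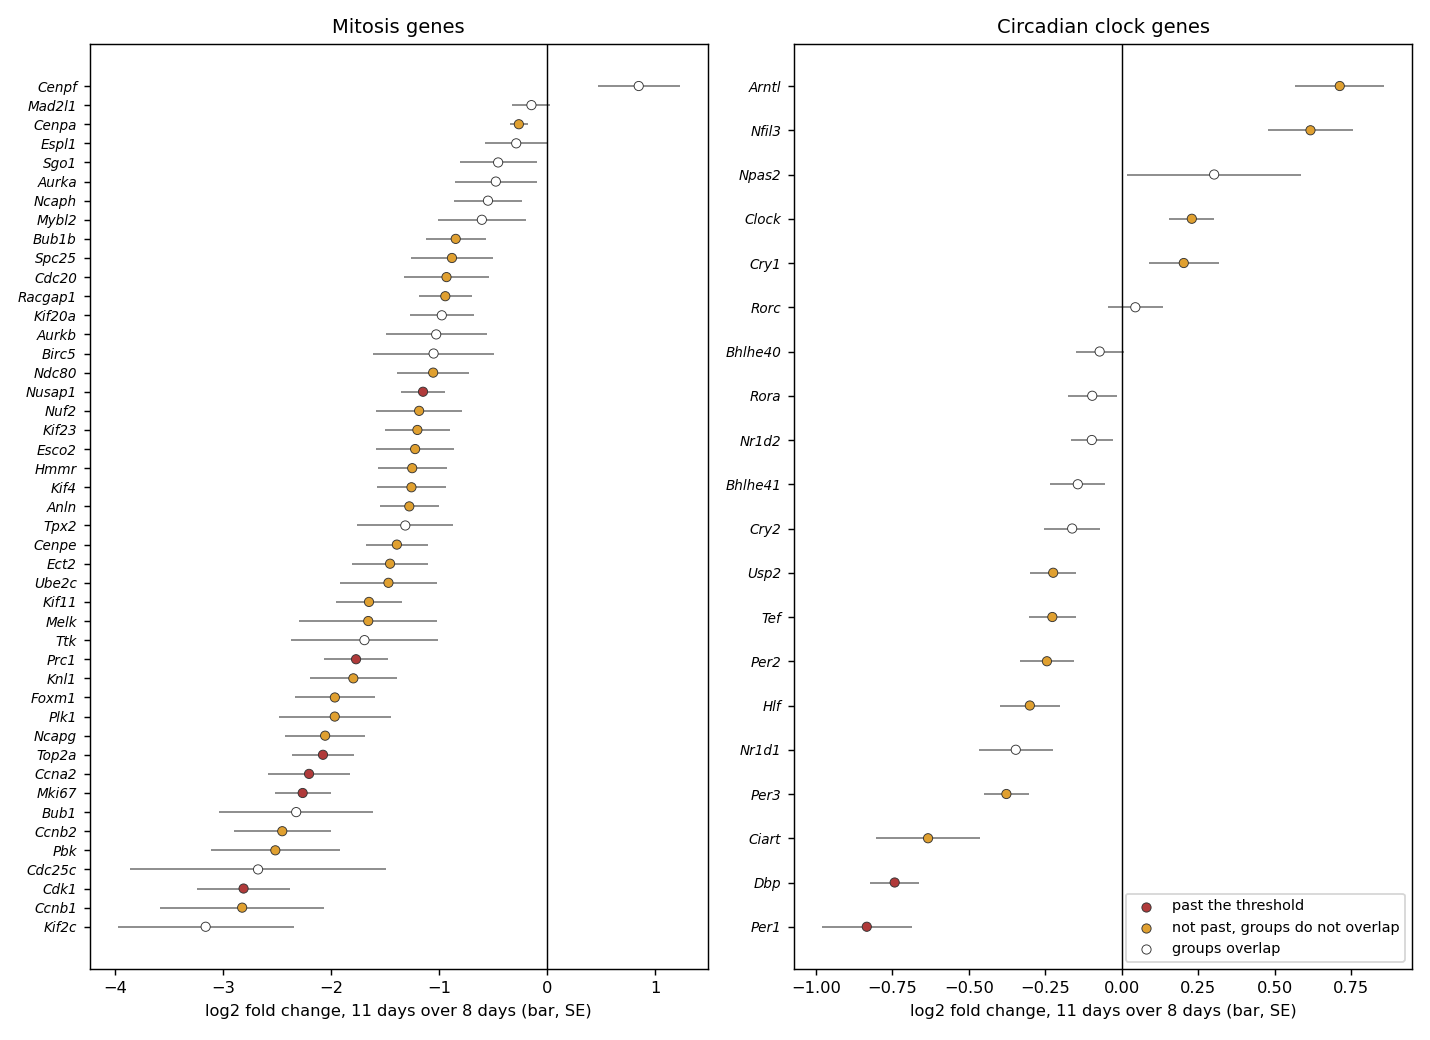
Log2 fold change, 11 days over 8 days, of the 45 mitosis genes and the 20 circadian clock genes tested, with bars of 1 SE. Red points passed edgeR's threshold, orange points did not but had hearts that do not overlap, and open points had overlapping hearts. Cenpf is the 1 mitosis gene to the right of 0, while 6 of the clock genes lie to the right and 14 to the left.

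Over the whole time course the mitosis genes were mostly highest at 4 days. Mki67 averaged 5.55 CPM in saline hearts, 26.5 CPM at 4 days, 8.33 CPM at 8 days and 1.78 CPM at 11 days. Top2a averaged 2.29 CPM in saline hearts, 14.0 CPM at 4 days, 3.62 CPM at 8 days and 0.879 CPM at 11 days. Of the 45 genes, 42 had a mean above saline at 8 days and 42 a mean below saline at 11 days. The 11-day mean was the lowest of the 4 groups in 41 of them, against 5922 of all 26862 genes.

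Histone genes, mostly those transcribed during DNA replication, also lay mostly below 0. They were picked by name, which takes in linker histone genes as well, not all of which are tied to replication. Of 62 such genes tested, a family chosen after the values were seen, 2 fell and 0 rose (0.0782% of all genes fell), 55 lay below 0, and 21 had all 11-day hearts below all 8-day hearts (5.11% of all genes), with a median of -0.86 (-0.72 without 8-day A). Together the 62 summed to 138.2 to 145.5 CPM at 11 days and 134.3 to 181.3 CPM at 8 days, ranges that overlap. H2bc7, an H2B gene, stood at 0.262, 0.358, 0.466 and 0.388 CPM in 11-day A to D, against 1.31, 0.804 and 2.17 CPM in 8-day A to C, and fell by 1.96 (SE 0.31, adjusted p = 0.0407) in edgeR's test. H4c1, an H4 gene, stood at 0.206, 0.358, 0.251 and 0.349 CPM at 11 days, against 0.945, 0.762 and 1.05 CPM at 8 days, and fell by 1.66 (SE 0.28, adjusted p = 0.0428). In both genes every 11-day heart lay below every 8-day heart. H2bc7 missed the threshold without 11-day A, B or D or 8-day C (0.0707, 0.0790, 0.0811 and 0.143) and H4c1 without 11-day A, B, C or D or 8-day A or C (0.0817, 0.0758, 0.0525, 0.0788, 0.0644 and 0.144). Histone genes include near-identical copies, so the value of any single one is uncertain.

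DNA replication genes lay mostly below 0 without a call. None of 30 tested passed in edgeR's test, with 8 at an unadjusted p under 0.05, against 3020 of all 26862 genes. Of the 30, 22 lay below 0 and 7 had all 11-day hearts below all 8-day hearts (5.11% of all genes). The median was -0.24, or -0.05 without 8-day C. Clspn, which signals from stalled replication forks, stood at 0.469, 0.551, 0.664 and 0.508 CPM in 11-day A to D, against 0.945, 1.10 and 1.37 CPM in 8-day A to C, with a log2 fold change of -1.06 (SE 0.23, adjusted p = 0.0860) in edgeR's test, and of -0.27 (adjusted p = 0.821) with effective lengths as offsets. Pcna, the sliding clamp of the fork, lay on the other side of 0, at 11.7 ± 0.705 CPM at 11 days and 10.1 ± 0.409 CPM at 8 days (SD), a log2 fold change of 0.20 (SE 0.085, adjusted p = 0.389).

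Acta1 and Fhl1, genes that the loaded heart switches on, were the called members of the fetal and hypertrophic program. Of its 32 genes 2 fell and 0 rose, where 0.0782% of all genes fell, and 25 lay below 0. The median was -0.11, and -0.20 without 8-day A and -0.05 without 8-day C. It became 0.01 when scaled by library size alone, a scaling that moves the median of all genes to 0.17. Acta1 (chromosome 8, 123891769 to 123894751, GRCm38) encodes skeletal muscle α-actin, which the rodent heart makes early in life and again under load. It stood at 55.7, 30.1, 29.4 and 34.5 CPM in 11-day A to D, against 105, 71.8 and 117 CPM in 8-day A to C. Fhl1 (chromosome X, 56731787 to 56793346, GRCm38) encodes a LIM protein of the sarcomere, and stood at 48.4, 45.0, 43.6 and 43.9 CPM at 11 days, against 86.3, 59.8 and 93.3 CPM at 8 days. In both genes 8-day B was the lowest 8-day heart and 11-day A the highest 11-day heart, and the groups did not overlap.

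Acta1 fell by 1.39 (SE 0.20, adjusted p = 0.0232) and Fhl1 by 0.82 (SE 0.12, adjusted p = 0.0232) in edgeR's test. Both passed without 8-day A (0.0433 and 0.0433). Acta1 missed the threshold without 11-day B or D or 8-day C (0.0687, 0.0758 and 0.0692) and Fhl1 without 11-day B or D or 8-day C (0.0689, 0.0758 and 0.0692). Acta1 also missed it with robust dispersions (0.199), and both did with all 4 groups in one fit (0.345 and 0.330). Of 20 alternative fits, leave-outs included, Acta1 passed in 11 and Fhl1 in 12. Over the time course Acta1 averaged 25.2 CPM in saline hearts, 156 CPM at 4 days, 97.9 CPM at 8 days and 37.4 CPM at 11 days, and Fhl1 averaged 31.2 CPM in saline hearts, 135 CPM at 4 days, 79.8 CPM at 8 days and 45.2 CPM at 11 days. Both 11-day means were thus the nearest of the treated groups to saline.

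Other members of this program did not pass. Nppa, which encodes atrial natriuretic peptide, stood at 58.9, 20.95, 71.4 and 42.9 CPM in 11-day A to D, against 63.7, 30.6 and 196 CPM in 8-day A to C, a log2 fold change of -1.0 (SE 0.47, adjusted p = 0.444) in edgeR's test. Its groups overlapped and 8-day C alone stood high, without which the log2 fold change was 0.03. Named after their values were seen, Myh7, β-myosin heavy chain, was at -0.07 (SE 0.24, adjusted p = 0.955), with -0.33 to 0.50 when 1 heart was left out, and Ankrd1, a stress-responsive protein that binds titin, at -0.32 (SE 0.11, adjusted p = 0.289). Among 40 sarcomere and contraction genes Acta1, already counted above, was the 1 called (0.0782% of all genes fell), and 19 lay above 0. Tnni3, cardiac troponin I, one of the cardiomyocyte markers, stood at 1533, 1619, 1496 and 1532 CPM at 11 days, against 1101, 1347 and 1153 CPM at 8 days, a log2 fold change of 0.36 (SE 0.093, adjusted p = 0.142), with every 11-day heart above the 8-day hearts.

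Among the circadian clock genes was Dbp, one of the 2 genes with the lowest adjusted p. In heart cells as elsewhere, CLOCK and BMAL1 (encoded by Arntl) switch on the Per and Cry genes and output factors such as Dbp, and the Per and Cry proteins in turn shut this activity down. Of 20 clock genes 2 fell, Dbp and Per1, and 0 rose, where 0.0782% of all genes fell. The hearts did not overlap in 12, with the 11-day hearts above in 4 (6.44% of all genes) and below in 8 (5.11% of all genes). The median was -0.15, or 0.01 when scaled by library size alone and -0.10 with effective lengths as offsets.

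Dbp (chromosome 7, 45705088 to 45710203, GRCm38), a transcription factor that passes the clock signal to other genes, stood at 19.1, 19.02, 17.5 and 17.6 CPM in 11-day A to D, against 32.8, 27.3 and 31.4 CPM in 8-day A to C. The hearts of each group lay close together and the groups lay apart. Dbp fell by 0.74 (SE 0.081, adjusted p = 0.00389) in edgeR's test, passed in all 7 fits with 1 heart left out, with a highest adjusted p of 0.0189, and missed the threshold when scaled by library size alone (0.282). Per1, a repressor of the loop, stood at 8.92, 9.03, 10.6 and 6.68 CPM at 11 days, against 15.1, 12.8 and 18.7 CPM at 8 days, and fell by 0.83 (SE 0.15, adjusted p = 0.0428). It missed the threshold without 11-day A, B or D or 8-day A or C (0.0817, 0.113, 0.0815, 0.0604 and 0.159).

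The following clock genes did not pass and are named after their values were seen. Arntl, an activator of the loop, stood at 2.95 ± 0.260 CPM at 11 days and 1.79 ± 0.111 CPM at 8 days (SD), a log2 fold change of 0.71 (SE 0.15, adjusted p = 0.0765) in edgeR's test. Nfil3, a repressor that binds the same sites as DBP, was at 0.62 (SE 0.14, adjusted p = 0.0945), and Clock at 0.23 (SE 0.074, adjusted p = 0.239). On the other side of 0 were Per3 at -0.38 (SE 0.073, adjusted p = 0.0638), Ciart, a repressor of CLOCK and BMAL1, at -0.63 (SE 0.17, adjusted p = 0.155), and Hlf and Tef, relatives of Dbp, at -0.30 (SE 0.099, adjusted p = 0.255) and -0.23 (SE 0.076, adjusted p = 0.262). Hlf was at -0.20 without 8-day A, and Tef at -0.11 with effective lengths as offsets. The hearts of the groups did not overlap in any of these 7 genes.

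Over the time course Dbp averaged 43.5 CPM in saline hearts, 31.0 CPM at 4 days, 30.5 CPM at 8 days and 18.3 CPM at 11 days, and Per1 averaged 26.3 CPM in saline hearts, 14.1 CPM at 4 days, 15.5 CPM at 8 days and 8.80 CPM at 11 days. Transcripts of these genes swing over the day, and the hour at which each heart was collected is not given in the sources used here, so that for the clock genes the length of treatment and the hour of collection cannot be told apart. Per1 was also the 1 called gene of 21 glucocorticoid response genes (0.0782% of all genes fell), whose median was -0.15 (0.03 when scaled by library size alone, -0.06 without 8-day A and -0.02 without 11-day D).

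**Figure D3:**
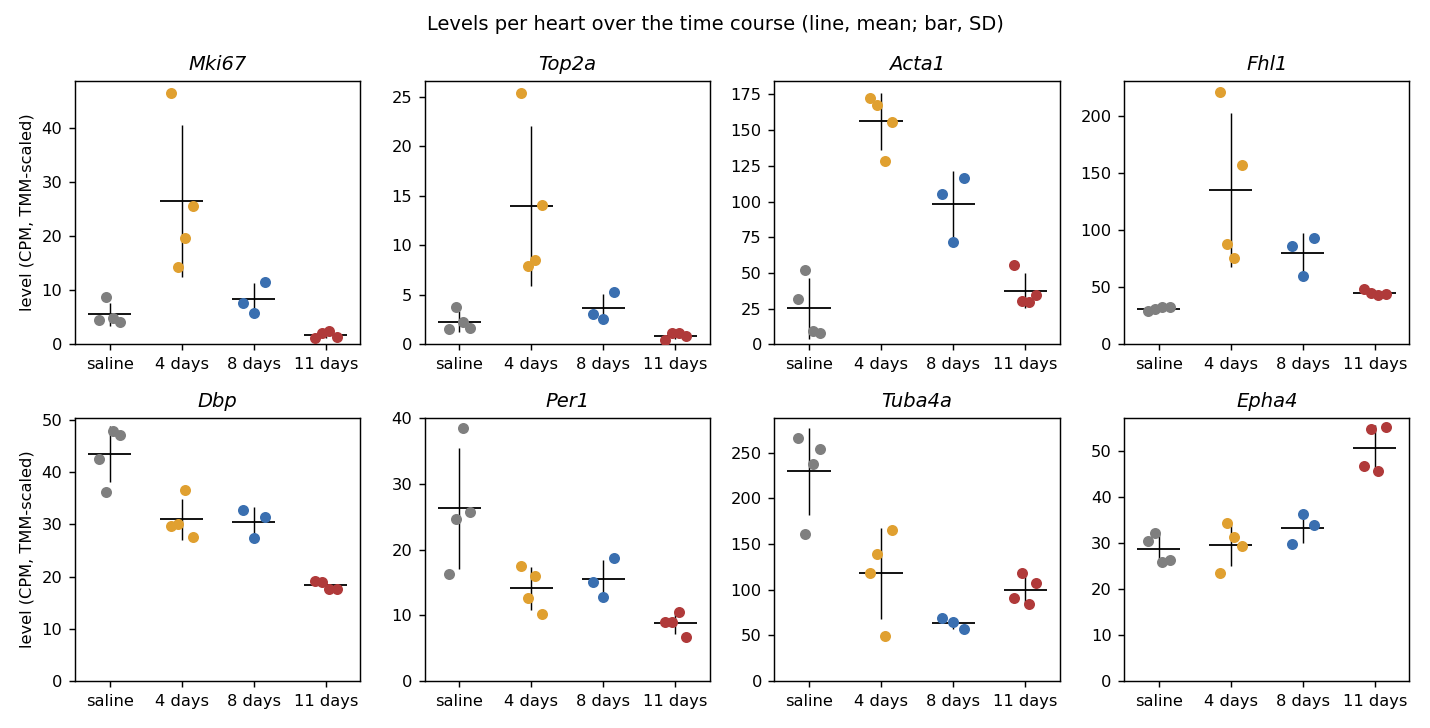
Levels in CPM (scaled by TMM) of 8 called genes in each heart, with saline, 4, 8 and 11 days in order of time, a line at each group mean and a bar of 1 SD. The 11-day hearts of Mki67 lie between 1.20 and 2.51 CPM and its 8-day hearts between 5.75 and 11.6 CPM, and every gene shown has 11-day hearts that do not overlap its 8-day hearts.

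The other genes that fell have varied roles. Ace, the enzyme that makes angiotensin II at the surface of endothelial cells, stood at 39.4, 31.9, 38.5 and 31.2 CPM in 11-day A to D, against 52.1, 47.9 and 53.8 CPM in 8-day A to C, and fell by 0.54 (SE 0.094, adjusted p = 0.0428) in edgeR's test. Its mean was 28.9 CPM in saline hearts, 52.6 CPM at 4 days, 51.2 CPM at 8 days and 35.3 CPM at 11 days. Scarb1, the receptor that takes up cholesterol from high-density lipoprotein, stood at 8.38, 8.07, 7.82 and 7.01 CPM at 11 days, against 12.5, 11.7 and 11.0 CPM at 8 days, and fell by 0.59 (SE 0.093, adjusted p = 0.0387). Both genes were lower in every 11-day heart. Papln, a matrix glycoprotein, stood at 3.26 to 4.68 CPM at 11 days and 6.19 to 8.20 CPM at 8 days, and fell by 0.87 (SE 0.14, adjusted p = 0.0387). Nav3, a microtubule-binding protein, fell by 0.63 (SE 0.10, adjusted p = 0.0428), and Pcdh17, a protocadherin of cell contacts, fell by 0.60 (SE 0.10, adjusted p = 0.0428).

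None of these 5 genes held in every fit with 1 heart left out. By edgeR's adjusted p, Ace was lost without 11-day B or D or 8-day A or C (0.125, 0.102, 0.0617 and 0.144), Scarb1 without 11-day B or D or 8-day A or C (0.0791, 0.0888, 0.0515 and 0.0599), Papln without 11-day A or D or 8-day C (0.0650, 0.0815 and 0.125), Nav3 without 11-day A, B or D or 8-day A or C (0.0817, 0.0946, 0.0788, 0.0551 and 0.125), and Pcdh17 in each of the 7 fits, with 0.0515 without 8-day A. Of the 20 alternative fits Ace passed in 9, Scarb1 in 10, Papln in 10, Nav3 in 8 and Pcdh17 in 6. With effective lengths as offsets Scarb1 was at -0.47 and did not pass in edgeR's test (0.167).

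Gm48113, a processed pseudogene named after its values were seen, had the same adjusted p as Dbp. It stood at 0.469, 0.413, 0.484 and 0.518 CPM in 11-day A to D, against 1.74, 1.57 and 1.88 CPM in 8-day A to C, from 15 to 52 counts at 11 days and 37 to 59 counts at 8 days, and fell by 1.86 (SE 0.20, adjusted p = 0.00389) in edgeR's test. The groups lay far apart in all hearts. With all 4 groups in one fit it did not pass (0.325). It lies inside Mblac2 on the opposite strand, which had a log2 fold change of -0.11 (adjusted p = 0.835), and reads of a processed pseudogene may belong to its parent gene, so its value is uncertain. Gm43238, a transcript of unknown kind also named after its values were seen, fell by 1.55 (SE 0.27, adjusted p = 0.0428), which was lost without 11-day A, B, C or D or 8-day A or B (0.0817, 0.0788, 0.0521, 0.105, 0.101 and 0.0742).

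Of the 16 genes that rose, 2 did so by at least 2-fold, Gm49540 and Gm13835, which are given further below with their doubts of mapping. Slc41a3, a magnesium transporter (chromosome 6, 90604725 to 90646412, GRCm38), stood at 12.8, 14.2, 12.6 and 15.4 CPM in 11-day A to D, against 8.48, 7.95 and 8.58 CPM in 8-day A to C, and rose by 0.72 (SE 0.095, adjusted p = 0.0189) in edgeR's test, which was lost without 11-day D (0.0619). Epha4, an ephrin receptor (chromosome 1, 77367185 to 77515088, GRCm38), stood at 46.7, 54.8, 45.8 and 55.2 CPM at 11 days, against 29.8, 36.3 and 33.9 CPM at 8 days, and rose by 0.60 (SE 0.093, adjusted p = 0.0383). Every 11-day heart was the higher in both genes. Epha4 averaged 28.7 CPM in saline hearts and 29.6 CPM at 4 days, and was lost without 11-day B or D or 8-day A or C (0.0784, 0.0788, 0.0515 and 0.0891). With effective lengths as offsets Epha4 was at 0.45 and did not pass in edgeR's test (0.161).

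A530016L24Rik stood at 10.4, 10.9, 9.86 and 13.8 CPM in 11-day A to D, against 6.53, 6.01 and 5.04 CPM in 8-day A to C, and rose by 0.94 (SE 0.13, adjusted p = 0.0232) in edgeR's test, which was lost without 11-day D or 8-day C (0.0585 and 0.0692). Cacybp, a protein that binds the calcium sensor calcyclin, stood at 36.4, 33.6, 29.0 and 31.5 CPM at 11 days, against 19.9, 24.0 and 17.0 CPM at 8 days, and rose by 0.69 (SE 0.11, adjusted p = 0.0394), which was lost without 11-day A, B or D or 8-day A or C (0.0650, 0.0814, 0.0788, 0.0548 and 0.109). The groups did not overlap in either gene. Tuba4a, an α-tubulin, stood at 90.4, 118, 84.3 and 107 CPM at 11 days, against 69.0, 64.4 and 56.4 CPM at 8 days, and rose by 0.66 (SE 0.11, adjusted p = 0.0428), which was lost without 11-day A, B or D or 8-day B or C (0.0555, 0.0967, 0.0980, 0.0554 and 0.149). Its mean was 229 CPM in saline hearts, 118 CPM at 4 days and 63.2 CPM at 8 days, the lowest of the 4 groups.

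Genes of mitochondria, detoxification and transcription were also among those that rose. Atp5g2, a subunit of the membrane ring of ATP synthase, stood at 10.6, 9.72, 12.1 and 10.4 CPM in 11-day A to D, against 4.42, 6.43 and 7.18 CPM in 8-day A to C, and rose by 0.84 (SE 0.14, adjusted p = 0.0428) in edgeR's test. Timm8a1, a chaperone of mitochondrial protein import, rose by 0.67 (SE 0.11, adjusted p = 0.0428), Gstm2, a glutathione transferase, by 0.54 (SE 0.095, adjusted p = 0.0428), and Taf1a, a factor of RNA polymerase I, by 0.65 (SE 0.11, adjusted p = 0.0428). Apobec2, a muscle member of the cytidine deaminase family, rose by 0.42 (SE 0.071, adjusted p = 0.0428) and Tmem205, a membrane protein, by 0.54 (SE 0.095, adjusted p = 0.0428). By edgeR's adjusted p, Atp5g2 was lost without 11-day A, B, C or D (0.0751, 0.0715, 0.0521 and 0.0815), Timm8a1 without 11-day A, B, C or D or 8-day A or C (0.0650, 0.0814, 0.0525, 0.0967, 0.0548 and 0.109), and Gstm2 without 11-day A, B, C or D or 8-day A or C (0.0817, 0.0788, 0.0551, 0.113, 0.0787 and 0.153). Taf1a was lost without 11-day A, B, C or D or 8-day A or C (0.0817, 0.0967, 0.0520, 0.0980, 0.0644 and 0.144), Apobec2 without 11-day A, B, C or D or 8-day B or C (0.0707, 0.116, 0.0513, 0.0980, 0.0551 and 0.144), and Tmem205 without 11-day A, B or D or 8-day B or C (0.0929, 0.117, 0.113, 0.0551 and 0.153).

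The remaining higher calls carry doubts of mapping. Rps6 and Rps27a, which encode proteins of the small ribosomal subunit and have many processed copies in the genome, rose by 0.44 (SE 0.076, adjusted p = 0.0428) and 0.45 (SE 0.074, adjusted p = 0.0428) in edgeR's test. Rps6 stood at 96.5 to 105 CPM at 11 days and 69.3 to 80.1 CPM at 8 days, and Rps27a at 50.3 to 57.9 CPM at 11 days and 37.3 to 39.7 CPM at 8 days. Rps6 was lost without 11-day A, B, C or D or 8-day B or C (0.0650, 0.117, 0.0556, 0.0980, 0.0551 and 0.144), and Rps27a without 11-day A, B, C or D or 8-day A or C (0.0751, 0.0814, 0.0521, 0.0788, 0.0510 and 0.143). The pseudogene Gpx4-ps2 rose by 0.70 (SE 0.12, adjusted p = 0.0428), while Gpx4 itself had a log2 fold change of -0.05. Gm13835, a processed pseudogene within the lncRNA Lncpint, rose by 1.56 (SE 0.27, adjusted p = 0.0428). Gpx4-ps2 was lost without 11-day A, C or D or 8-day A or C (0.0817, 0.0521, 0.0980, 0.0550 and 0.143), and Gm13835 without 11-day A, C or D or 8-day A or C (0.0817, 0.0521, 0.0788, 0.103 and 0.159). Gm49540, named after its values were seen, stood at 3.06, 3.74, 3.69 and 3.45 CPM in 11-day A to D, against 0.396, 1.40 and 1.60 CPM in 8-day A to C, and rose by 1.65 (SE 0.29, adjusted p = 0.0428), which was lost without 11-day A, B, C or D or 8-day C (0.0707, 0.106, 0.0521, 0.0967 and 0.0509). It lies antisense to Mb, the myoglobin gene, at 2746 CPM at 11 days and 2396 CPM at 8 days, and since the strand setting of the counting is not given in the sources used here, reads of the 2 genes cannot be told apart. The same limit holds for the other called genes that overlap a gene on the opposite strand. None of those partners that were tested passed in edgeR's test. Their log2 fold changes were 0.48 (Galnt2l, beside Acta1), 0.07 (Sphk2, beside Dbp), 0.26 (Exosc9, beside Ccna2), -0.36 (Oip5, beside Nusap1), -0.05 (Stk16, beside Tuba4a), 0.00 (Rccd1, beside Prc1), -0.37 (Clhc1, beside Rps27a), 0.27 (Gm49893, beside Apobec2), -0.76 (9630013A20Rik, beside Pcdh17) and 0.27 (Ccdc159, beside Tmem205), while Gm45240, beside Mki67, averaged 0 CPM at 11 days and 0.0344 CPM at 8 days.

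Ribosomal protein genes lay mostly above 0. Of 71 tested, 1 rose (Rps6; Rps27a is not in the list) and 0 fell, 64 lay above 0, 35 had all 11-day hearts above all 8-day hearts (6.44% of all genes), and the median was 0.20 (0.25 without 8-day A). They summed to 4138 to 4439 CPM at 11 days and 3524 to 3679 CPM at 8 days. Of 78 nuclear-encoded respiratory chain subunits, 1 rose (Atp5g2) and 0 fell, where 0.0596% of all genes rose, 64 lay above 0, and the median was 0.15, or 0.09 without 8-day C. Differences between these groups also moved with transcript length.

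Among 13241 genes at 1 CPM or more, the median log2 fold change was 0.134 for effective lengths up to 500 bases, with 70.6% above 0, and -0.0345 for lengths over 4000 bases, with 39.8% above 0. Spearman's correlation of fold change with length was -0.221 over these genes, which share the 7 libraries. Of the 16 genes that rose 14 were under 2000 bases, as were 10 of the 21 that fell. With the length trend removed from each library, an alternative chosen after seeing the data, the median was 0.05 for the ribosomal proteins, 0.01 for the respiratory chain and -1.26 for the mitosis genes. The same fit called 4 genes higher and 12 lower, all of them among the 37 of the main fit. Rps6, Rps27a and Atp5g2 then did not pass in edgeR's test (0.137, 0.154 and 0.0705).

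**Figure D4:**
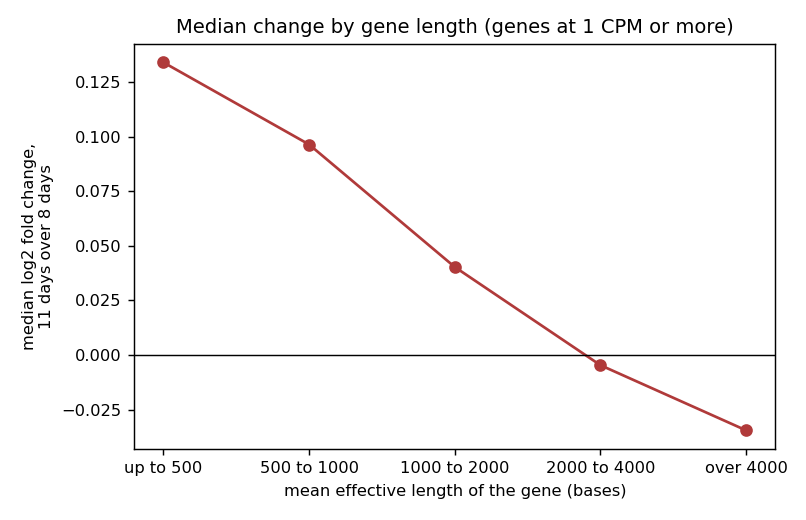
Median log2 fold change, 11 days over 8 days, of genes at 1 CPM or more in 5 bins of effective length in bases. The median is 0.134 in the shortest genes and -0.0345 in the longest.

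Fatty acid genes, the main fuel pathway of the heart, had 0 of 67 members called by edgeR. At an unadjusted p under 0.05 were 17, against 3020 of all 26862 genes. Above 0 lay 51, and the median was 0.13, or 0.07 without 8-day C and 0.08 with the length trend removed. Decr1, an enzyme that breaks down unsaturated fatty acids, stood at 164, 148, 149 and 161 CPM in 11-day A to D, against 109, 134 and 104 CPM in 8-day A to C, a log2 fold change of 0.43 (SE 0.090, adjusted p = 0.0837) in edgeR's test. Acadm, medium-chain acyl-CoA dehydrogenase, was at 0.35 (SE 0.090, adjusted p = 0.149), and Plin2, which coats lipid droplets, at 0.37 (SE 0.087, adjusted p = 0.117). In all 3 every 11-day heart was above every 8-day heart, and none passed.

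Genes of the matrix lists lay mostly below 0 without a call, and Papln, given above, is in none of them. Of 17 collagens 16 lay below 0 with a median of -0.38, of 48 matricellular and matrix glycoprotein genes 39 with a median of -0.27, and of 18 basement membrane genes 14 with a median of -0.23. Without 8-day C the medians were -0.02 for the collagens and -0.04 for the glycoproteins, and without 8-day B -0.39 for the basement membrane. By edgeR 0 members were called in each, with 6, 18 and 11 at an unadjusted p under 0.05, against 3020 of all 26862 genes. Bgn, the proteoglycan biglycan, stood at 78.5, 64.8, 80.4 and 61.7 CPM in 11-day A to D, against 106, 89.9 and 116 CPM in 8-day A to C, a log2 fold change of -0.55 (SE 0.11, adjusted p = 0.0713). Sparc, a collagen-binding glycoprotein, was at -0.61 (SE 0.13, adjusted p = 0.0860) and at -0.37 without 8-day C, and Col18a1, a basement membrane collagen, at -0.55 (SE 0.11, adjusted p = 0.0765). The hearts did not overlap in these 3 genes.

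The main fibrillar collagens overlapped between the groups. Named after their values were seen, Col1a1 stood at 63.6 ± 25.5 CPM at 11 days and 99.6 ± 66.4 CPM at 8 days (SD), a log2 fold change of -0.65 (SE 0.34, adjusted p = 0.505) in edgeR's test, and Col3a1 at 167 ± 94.0 CPM at 11 days and 302 ± 193 CPM at 8 days, -0.85 (SE 0.37, adjusted p = 0.406). Without 8-day C the log2 fold changes were 0.04 and -0.19, and without 11-day C that of Col3a1 was -1.32. The mean log2 level of the collagen list, relative to the mean of the 7 hearts, ran from -0.38 to 0.27 at 11 days and from -0.12 to 0.68 at 8 days, with 11-day C the highest 11-day heart. Beside these, 20 activated fibroblast markers summed to 109 to 299.8 CPM at 11 days and 180.3 to 318 CPM at 8 days. The marker list is not separate from the matrix lists, since Col8a1 is in both it and the collagen list. The part of these markers in the matrix values was not tested. Mmp3, a matrix-degrading protease, lay on the other side of 0, at 3.07, 1.38, 1.63 and 2.95 CPM in 11-day A to D, against 0.762, 0.677 and 0.702 CPM in 8-day A to C, a log2 fold change of 1.68 (SE 0.30, adjusted p = 0.0516).

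**Figure D5:**
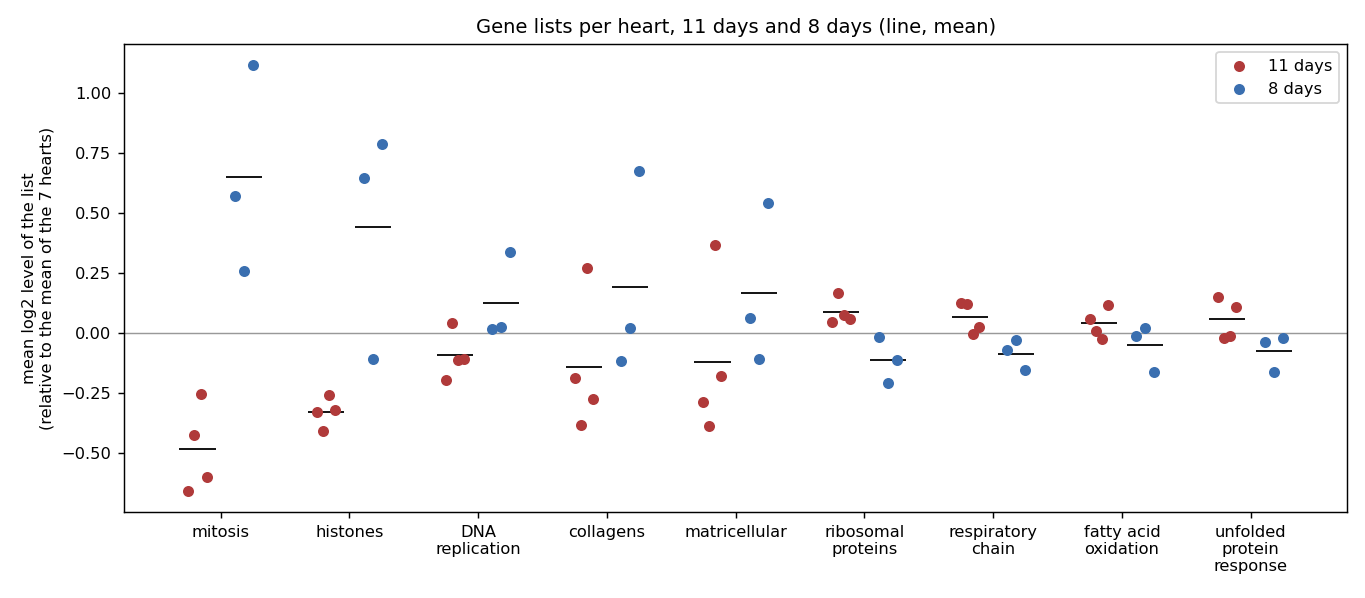
Mean log2 level of 9 gene lists in each of the 7 hearts (points), relative to the mean of those hearts, with the 11-day hearts left of the 8-day hearts and a line at each group mean. The mitosis genes lie between -0.66 and -0.26 at 11 days and between 0.26 and 1.11 at 8 days, while the collagens overlap.

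Protein folding genes of the endoplasmic reticulum lay mostly above 0 without a call in edgeR's test. Of 30 unfolded protein response genes 0 were called, 19 lay above 0 and the median was 0.10. At an unadjusted p under 0.05 were 11, against 3020 of all 26862 genes. Calr, calreticulin, stood at 64.8, 60.4, 58.3 and 69.8 CPM in 11-day A to D, against 48.1, 47.6 and 47.2 CPM in 8-day A to C, a log2 fold change of 0.41 (SE 0.078, adjusted p = 0.0571). The groups did not overlap. Pdia6 was at 0.44 (SE 0.092, adjusted p = 0.0813) and Hsp90b1 at 0.33 (SE 0.079, adjusted p = 0.122), both chaperones of the same compartment. Of 25 immediate early genes, transcription factors that respond to stimuli within a short time, 18 lay below 0 with 0 called (8 at an unadjusted p under 0.05), among them Nr4a3 at -0.97 (SE 0.23, adjusted p = 0.117) and Myc at -1.10 (SE 0.28, adjusted p = 0.135).

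Lists of immune, endothelial and fibroblast genes had 0 members called by edgeR. Of 12 MHC class II presentation genes 11 lay below 0, with a median of -0.58 and 4 at an unadjusted p under 0.05. The median was -0.92 without 8-day A, -0.11 without 8-day C and -0.35 without 11-day D. H2-Aa, a class II chain, stood at 3.99, 3.69, 5.88 and 2.40 CPM in 11-day A to D, against 4.85, 7.49 and 9.06 CPM in 8-day A to C, with overlapping hearts and a log2 fold change of -0.85 (SE 0.25, adjusted p = 0.196) in edgeR's test. The 24 macrophage and monocyte markers lay evenly on both sides of 0 and summed to 185 to 214 CPM at 11 days and 168 to 201 CPM at 8 days. The 22 endothelial markers summed to 1347 to 1471 CPM at 11 days and 1299 to 1413 CPM at 8 days, and the 18 fibroblast markers to 1437 to 2040 CPM at 11 days and 1459 to 2171 CPM at 8 days. All 3 ranges overlapped between the groups. In edgeR's test 3, 4 and 4 of these markers had an unadjusted p under 0.05, against 3020 of all 26862 genes.

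Set beside saline, most genes that fell were above it at 8 days and below it at 11 days. Of the 21 genes that fell, 18 had an 8-day mean above saline, 17 had an 11-day mean below saline, and in 17 the 11-day mean was the lowest of the 4 groups. Of the 16 that rose, 14 had an 8-day mean below saline and 10 had their highest mean of the 4 groups at 11 days. These genes were chosen for a difference between 11 and 8 days, which by itself favours such positions. Of all 26862 genes tested, 13349 had an 8-day mean above saline and 13461 below it, and 13266 had an 11-day mean below saline. The 11-day mean was the lowest of the 4 groups in 5922 of them and the highest in 6222. The 11-day mean was nearer to saline than the 8-day mean in 11 of the genes that rose (68.8%) and 11 of those that fell (52.4%), against 55.7% of all genes tested.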

How the data were processed

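RNA of 15 mouse hearts (saline, 4, 8 and 11 days of isoproterenol) had been sequenced from TruSeq total RNA libraries, 1 library a heart, with 1 heart of the 8-day group left out for quality. Per the submitters' processing notes, reads were trimmed with cutadapt 4.1 and aligned to GRCm38.p6 with HISAT2 2.2.1, and RSEM 1.3.3 gave the gene tables. The authors deposited RSEM's expected counts (estimated counts, not always whole numbers) with TPM values and effective lengths. The strand setting and the way reads of near-identical genes were divided are, for this series, not stated in the methods or labels.

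Expected counts of 55401 genes were rounded. Genes whose counts summed to 10 or more over the 15 samples (26862) entered edgeR 4.0.16 (R 4.3.3): TMM scaling, quasi-likelihood test of the 4 11-day against the 3 8-day libraries, two-sided, Benjamini-Hochberg adjustment over all genes, threshold 0.05. The SE is the size of the log2 fold change over the square root of F. The test was tried on simulated counts first. Gene positions are GENCODE M21 (55141 IDs matched), and promoters are RefSeq's. Levels per list are sums of CPM or mean log2 CPM with a prior count of 2. With 3 and 4 hearts a group, the p-values set each difference against a spread between these hearts that is estimated with help from all genes. The deposited TPM values were not tested.

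The members and lists were chosen with earlier results of these data known. Genes were named from the called genes with 5 CPM or more in the higher group and no overlap of hearts, up to 15 in each direction by log2 fold change (15 rose and 10 fell), and for each list its called members up to 6 or else up to 3 with the smallest p; others are marked as named after their values were seen. Alternatives were other scalings, filters and thresholds, DESeq2 1.42.0, limma 3.58.1 (voom with quality weights), robust dispersions, effective lengths as offsets, all 4 groups in one fit, a block of replicate letters, each heart left out, and removal of the length trend (loess, span 0.5), the last chosen after seeing the data.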

Additional observations from a re-analysis of the deposited data

Results flagged for a closer look

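Of 88 checks for a heart far from the rest of its group, each on the 4 11-day hearts, 3 found one, and chance alone gives about 1 in 20. The mean log2 level of 42 glycolysis and glycogen genes, relative to the mean of the 7 hearts, was 0.0896 in 11-day A, against -0.00175, -0.000944 and 0.00461 in the other 11-day hearts. The same measure of 22 endothelial markers was -0.0462 in 11-day C, against 0.0420, 0.0513 and 0.0538 in the other 11-day hearts. For 7 red blood cell markers it was 0.80 in 11-day D, against -0.54, -0.50 and -0.50 in the other 11-day hearts, and 11-day D was also the heart whose removal left the fewest calls. The markers' part in the calls was not tested.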

How the results depend on the processing

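The count of called genes depended strongly on the processing, while all 37 genes kept their direction in every alternative fit. Against 37 genes (16 higher, 21 lower), scaling by library size alone called 82 (32 higher, 50 lower), DESeq2's size factors 49 (17 higher, 32 lower), leaving out mitochondrial, CT010467.1 and Lars2 counts 50 (19 higher, 31 lower), no filter on low counts 327 (162 higher, 165 lower), DESeq2 312 (188 higher, 124 lower) and robust dispersions 124 (67 higher, 57 lower). Fewer were called with filterByExpr, 4 (1 higher, 3 lower), with the sum filter over the 7 libraries, 4 (1 higher, 3 lower), with voom quality weights, 3 (0 higher, 3 lower), with effective lengths as offsets, 11 (4 higher, 7 lower), with all 4 groups in one fit, 1 (0 higher, 1 lower), and with the length trend removed, 16 (4 higher, 12 lower). An adjusted p of 0.01 left 3 (0 higher, 3 lower), and a 2-fold minimum left 15 (2 higher, 13 lower). The causes were not tested. Of the 37 genes, 37 were among those called without a filter and by DESeq2, 32 with robust dispersions and 18 by library size alone. The share of calls that were higher was 43.2%, against 60.3% by DESeq2, 54% with robust dispersions and 25% with filterByExpr.

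Leaving out 1 heart gave 3 to 114 calls, with 0 to 46 higher and 3 to 68 lower. The fewest calls (3) came without 11-day D, the deepest of the 7 libraries compared, and the most (114) without 8-day B; without 8-day A there were 38 (15 higher, 23 lower). The replicate letters were not shown to pair the hearts: same-lettered 11-day and 8-day hearts had correlations of -0.109 (A), -0.067 (B) and 0.0371 (C). With the replicate block over the 6 hearts lettered A to C, 213 genes were called (80 higher, 133 lower), including all 37. The same 6 hearts without the block, which is the fit without 11-day D, gave 3 calls (0 higher, 3 lower). Leaving out mitochondrial counts gave no value for the mitochondrial transcripts. Depth limits the value of Cdk1, which had 3 to 11 counts in the 11-day hearts. The same holds for Kntc1, with 7, 9, 9 and 13 counts in 11-day A to D, and for Aspm, with 8, 18, 19 and 36. Ccna2 had 11, 9, 11 and 25 counts in 11-day A to D, against 37, 9 and 49 in 8-day A to C. H4c1 had 11, 13, 14 and 35 counts in 11-day A to D.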
